A study of Mus musculus with 18 samples.

Results

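Mouse Dazl-GFP embryonic stem (ES) cells that had been differentiated in culture for 16 days and sorted as GFP-positive were compared with undifferentiated GFP-positive ES cells of the same line. The 4 arrays were taken by sample title, 2 from day 16 and 2 from ES cells, of 18 arrays in 9 groups in all. Both groups were labelled male, of C57BL/6 and 129SV mixed strain, and both carried the Dazl-GFP reporter. The ES cells had been kept in Lif medium with feeder MEFs, which are embryonic fibroblasts. The day 16 cells came from ES cells whose feeders had been removed on tissue culture plastic and which were then grown on gelatin in Differentiation Medium. Further groups of 2 arrays each served as side comparisons: GFP-positive cells of the line at day 12, Dazl-GFP+ germ cells from transgenic gonads of E13.5 embryos labelled male, and GFP-negative ES cells of the line. The labels do not say whether the line was 1 clone, how the reporter was built, or whether replicates were separate cultures, so p-values measure only the spread between these samples.

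Dazl encodes an RNA-binding protein of germ cells, and the submitters called the sorted cells in vitro primordial germ cells. Primordial germ cells are the embryonic founders of sperm and eggs. On reaching the gonad they switch on genes for the piRNA pathway, which silences transposons, and for meiosis, which retinoic acid starts through Stra8. Cultures of ES cells also give rise to other tissues when Lif is withdrawn, among them extraembryonic endoderm, neural and eye tissue.

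The level of a gene is given as the log2 ratio of its probe's signal to the 75th percentile of signals on that array, so 0 is a signal at that percentile. A gene was called higher or lower where limma's p, adjusted over all 18868 genes by Benjamini-Hochberg, was under 0.05. The 75th percentile lay at 156 and 164 signal units on the day 16 arrays, against 112 and 103 on the ES arrays. Between 58.6% and 61% of spots were well above background on the day 16 arrays, against 50.6% to 55% on the ES arrays. No spot was saturated.

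The 2 day 16 arrays were closer to each other than repeated spots within an array. Among bright genes the robust SD of the log2 difference between them was 0.0498, against 0.118 between the 2 ES arrays, while 2 spots of 1 probe on a day 16 array differed with an SD of 0.0692 and 0.0691. The 2 arrays thus differed by less than the measuring noise, and the labels do not say whether they hold 1 RNA sample. The day 12 pair (0.0777, against spot SDs of 0.083 and 0.0914) and the GFP-negative ES pair (0.0869, against 0.1155 and 0.0889) were likewise closer than repeated spots. Values are therefore given per array without an SD, and the main counts of calls are also given with the day 16 arrays counted as 1 sample. That setting keeps the day 12 and GFP-negative ES arrays as 2 samples each. Day 16 replicate 1 lay on another slide than day 16 replicate 2 and ES replicate 2, which shared a slide, and ES replicate 1 lay on a further slide, with another scan day. The library labelled E13.5 replicate 1 had Ddx3y at -7.45 and Eif2s3y at -7.29, both not well above background, although its label says male. Each of the other 17 arrays had both of these Y-linked genes above background.

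At day 16, 2093 genes were higher and 2572 were lower than in GFP-positive ES cells, 4665 in all or 24.7% of genes tested (11.1% higher and 13.6% lower). With the day 16 arrays as 1 sample the counts were 993 higher and 1107 lower. With each of the 5 closest replicate pairs of the series as 1 sample they were 57 and 34. Those pairs were day 16, day 12, GFP-positive and GFP-negative ES cells of the line, and Stella-GFP cells at day 7. With slide as a block 2764 were called. The split depended on the processing: normexp background correction gave 167 higher and 921 lower, flooring of low signals 2036 and 4090, no filter on dim probes 2103 and 5075, and quantile normalization 2552 and 2223. The median log2 difference of all genes was -0.15, against 0.20 after normexp, -0.02 after quantile normalization, -0.28 with the floor and -0.43 with no filter. Counts of list members under an alternative setting belong beside the all-gene counts of that setting, not beside 11.1% and 13.6%. Of the genes called higher, 641 were not well above background on either ES array, and for these a fold is given as a lower bound.

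**Figure D1:**
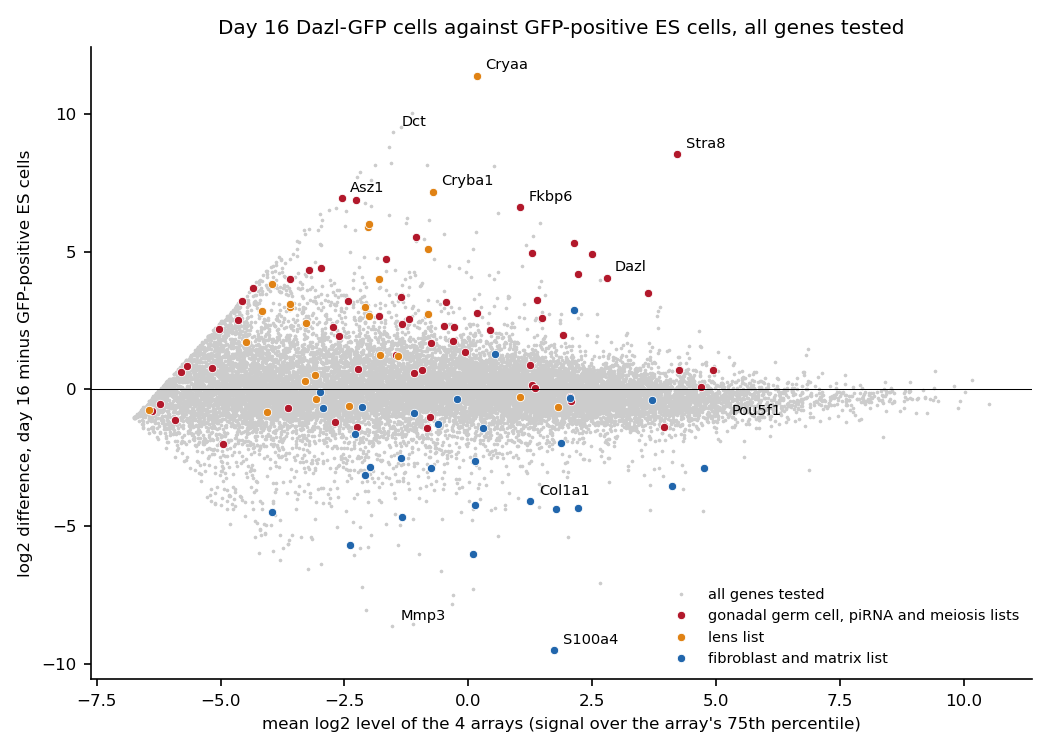
Log2 difference of day 16 minus GFP-positive ES cells (vertical axis) against the mean log2 level of the 4 arrays (horizontal axis) for 18868 genes in grey, with members of the germ cell lists in red, the lens list in orange and the fibroblast list in blue. Cryaa (11.40) and Stra8 (8.54) lie at the top, S100a4 (-9.51) at the bottom, and the red and orange points lie mostly above 0 while the blue points lie mostly below it.

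The gene of the reporter itself was higher in the sorted day 16 cells. Dazl had levels of 4.85 and 4.78 at day 16, against 0.79 and 0.73 in GFP-positive ES cells, a log2 difference of 4.06 ± 0.16 (SE, 16.6-fold, adjusted p = 6.97e-08). The 2 day 16 arrays lay above both ES arrays, and GFP-negative ES cells were lower still, at -3.29 and -3.42. Both groups were gated on the reporter, so the Dazl level also carries the gate. Another, dimmer Dazl probe gave a log2 difference of 6.19, with means of 3.76 at day 16 and -2.43 in ES cells. The size of the Dazl fold thus depends on the probe. Cryaa, which encodes the lens protein alpha A-crystallin, had the largest rise among genes with a RefSeq name. Its levels were 5.89 and 5.85 at day 16, against -4.95 and -6.11 in ES cells, where it was not well above background on either array. The difference was at least 932-fold (log2 11.40 ± 0.42, adjusted p = 4.34e-08). Another, dimmer Cryaa probe gave a log2 difference of 7.68, with means of 3.34 at day 16 and -4.34 in ES cells. That probe was also not well above background on either ES array.

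Genes of gonadal germ cells were higher at day 16 in 13 of 23 members tested, of 24 listed, and lower in 1, with a median log2 difference of 2.24. Beside this list, and the piRNA and meiosis lists below, 11.1% of all genes were higher and 13.6% lower. With the day 16 arrays as 1 sample the counts were 11 and 1, and after normexp correction 6 and 0. Their summed signal was 137 to 139 times the 75th percentile at day 16, against 50.1 to 54.3 in ES cells. Mael, a piRNA factor, had 3.06 and 2.94 at day 16, against -0.15 and -0.35 in ES cells (log2 3.25 ± 0.35, 9.51-fold, adjusted p = 9.39e-05). Each day 16 array was above each ES array.

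Transcription factors of gonadal germ cells rose as well. Dmrt1, which controls the mitosis to meiosis decision in the testis, had 0.69 and 0.64 at day 16, against -1.90 and -1.39 in ES cells (log2 2.31 ± 0.21, adjusted p = 2.47e-05). Sohlh2, a helix-loop-helix factor of spermatogonia and oocytes, had 3.76 and 3.74 at day 16, against -1.40 and -1.0 in ES cells, a 30.9-fold difference (log2 4.95 ± 0.30, adjusted p = 1.45e-06). Neither gene's groups overlapped. The X-linked testis gene Tex13b was at 1.20 and 1.16 at day 16 and was not well above background in ES cells, a difference of at least 36.1-fold (adjusted p = 1.06e-06). Stk31, a germ cell protein with a tudor domain, was 9.05-fold higher (log2 3.18 ± 0.26, adjusted p = 1.23e-05).

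Ddx4, the RNA helicase often used to mark gonadal germ cells, differed little. It had levels of 1.71 and 1.64 at day 16, against 0.72 and 0.89 in ES cells (log2 0.87 ± 0.23, adjusted p = 0.0181). That call was lost with the day 16 arrays as 1 sample (adjusted p = 0.0949), with slide as a block (0.0613), after normexp (0.478), and when any of the 4 arrays was left out (0.0589 to 0.113). Of 13 genes tested of the earlier, newly specified primordial germ cell, 1 was higher and 3 were lower, with a median of -0.45 (1 and 2 with the day 16 arrays as 1 sample). Among all genes 11.1% were higher and 13.6% lower. The 1 higher member was Kit, the receptor for stem cell factor on migrating germ cells, with levels of 2.24 and 2.20 at day 16, against 0.95 and 0.58 in ES cells (log2 1.45 ± 0.22, adjusted p = 0.00082; 0.0564 after normexp). Dppa3, also called Stella, had 3.55 and 3.58 at day 16, against 4.19 and 4.26 in ES cells (log2 -0.66 ± 0.35, adjusted p = 0.201; 0.00471 without E13.5 replicate 1). Prdm1 (log2 -0.55), Tfap2c (-0.45) and Nanos3 (-1.21), which specify or protect these cells, were not called either, at adjusted p of 0.362, 0.34 and 0.236.

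Most piRNA genes that changed were higher: 11 of 20 tested, of 21 listed, against 2 lower, with a median of 1.30. These were 9 and 2 with the day 16 arrays as 1 sample, and 6 and 1 after normexp. Fkbp6, a co-chaperone of piRNA loading, had 4.41 and 4.30 at day 16, against -2.46 and -2.07 in ES cells (log2 6.61 ± 0.51, 98-fold, adjusted p = 8.52e-06). Asz1, a germ granule protein, had 0.95 and 0.89 at day 16, against -6.11 and -5.95 in ES cells, where it was not well above background (at least 30.1-fold, adjusted p = 1.06e-06). The mitochondrial Gpat2, which acts in piRNA production, was 40-fold higher (log2 5.32 ± 0.35, adjusted p = 3.06e-06), and Gtsf1, a partner of PIWI proteins, 18.3-fold (log2 4.19 ± 0.49, adjusted p = 0.000152). In none of these did a day 16 array reach the ES range.

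Other members of the pathway were at low level or moved the other way. The helicase genes Mov10l1 (6.35-fold, adjusted p = 0.000591) and Tdrd9 (at least 2.78-fold, adjusted p = 0.000666) were higher, but neither was called after normexp (adjusted p = 0.144 and 0.496). Piwil2, a PIWI protein that carries piRNAs, had -0.54 and -1.15 at day 16, against -1.92 and -2.25 in ES cells, and was not called (log2 1.24 ± 0.48, adjusted p = 0.081). Tdrd12 was lower, with 3.28 and 3.22 at day 16 against 4.79 and 4.47 in ES cells (log2 -1.38 ± 0.25, adjusted p = 0.00261). Tdrd1, a tudor protein of germ granules, was lower with -2.88 and -3.01 at day 16 against -1.60 and -1.50 in ES cells (log2 -1.39 ± 0.27, adjusted p = 0.00354), but its sign turned after normexp (0.09).

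Meiosis genes were higher in 16 of 29 members tested, of 32 listed, and lower in 2, with a median of 2.37. These were 10 and 1 with the day 16 arrays as 1 sample, and 4 and 0 after normexp. Their summed signal was 482 to 504 at day 16, against 46.1 to 47.3 in ES cells, in units of the 75th percentile. Stra8 alone made up 347 to 370 of the day 16 sum, and the other 28 members summed to 134 to 135 at day 16, against 45.2 to 46.4 in ES cells. Stra8, the retinoic acid target that licenses meiotic entry, had 8.53 and 8.44 at day 16, against -0.03 and -0.08 in ES cells, a 371-fold difference (log2 8.54 ± 1.73, adjusted p = 0.00455). Within each pair the arrays were close. The SE uses the spread of all 9 groups, among them the E13.5 pair at 8.87 and 1.55.

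Cohesin and axis genes of meiotic chromosomes rose with it. Smc1b, a cohesin subunit specific to meiosis, had 4.96 on both day 16 arrays, against 0.10 and -0.01 in ES cells (log2 4.92 ± 0.48, 30.3-fold, adjusted p = 4.99e-05). The cohesin gene Stag3 had 2.78 on both day 16 arrays, against 0.06 and 0.34 in ES cells (log2 2.58 ± 0.29, adjusted p = 0.000128). Sycp3, of the lateral element of the synaptonemal complex, had -0.72 and -0.94 at day 16, against -4.64 and -3.43 in ES cells (log2 3.21 ± 0.80, adjusted p = 0.0137). The groups of each gene were apart, but the Sycp3 call was lost with the day 16 arrays as 1 sample (adjusted p = 0.0724), with slide as a block (0.0655), after normexp (0.496), without either day 16 array (0.0808 and 0.0617) and without ES replicate 1 (log2 2.61, adjusted p = 0.111). Without ES replicate 2 its log2 difference was 3.81 (adjusted p = 0.0283). Sycp3, Pax6, Crybb3, Srgn, Cubn, Usp17la, Tcstv1, Bmi1, Spo11 and Hnf4a were well above background on 1 of the 2 ES arrays, and Mmp3 and Cav1 on 1 of the 2 day 16 arrays.

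The synaptonemal complex genes Sycp1 (at least 26-fold, adjusted p = 0.00435) and Tex12 (at least 9.31-fold, adjusted p = 0.000644) and the telomere attachment gene Terb2 (at least 7.69-fold, adjusted p = 0.000267) were not well above background in ES cells. Terb2 had a log2 difference of 4.33, which was 3.66 without ES replicate 1 and 5.01 without ES replicate 2. Hormad1 and Hormad2, of the unpaired chromosome axis, were 10.1-fold and 5.81-fold higher (adjusted p = 0.00153 and 0.00103). None of these 5 was called after normexp, where adjusted p ran from 0.121 to 0.496. The 2 lower members were Mlh3, a mismatch repair gene that acts in crossing over, with -1.50 and -1.59 at day 16, against -0.08 and -0.17 in ES cells (log2 -1.42 ± 0.19, adjusted p = 0.000409; 0.496 after normexp), and Mei4, needed for break formation (log2 -2.00 ± 0.48, adjusted p = 0.011). Mlh3 was also not called with the mean over its probes (log2 -0.79, adjusted p = 0.179). Mei4 was not well above background at day 16; it turned to 0.33 after normexp and was not called with the day 16 arrays as 1 sample (0.0614), without day 16 replicate 1 (0.0814) or without ES replicate 2 (0.0844). Msh5, of crossing over, was at least 1.51-fold higher (adjusted p = 0.006), but not called after normexp (0.496), with low signals floored (0.304), without day 16 replicate 1 (0.0506) or without ES replicate 2 (0.052). Of the break and strand exchange genes, 2 more were not called: Dmc1 (log2 2.37 ± 0.91, adjusted p = 0.0787; 0.0098 without E13.5 replicate 1) and Spo11 (log2 -0.70 ± 0.91, adjusted p = 0.607). Spo11 differed between the day 16 arrays, at -4.58 and -3.39, and its ES levels were -3.86 and -2.70.

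**Figure D2:**
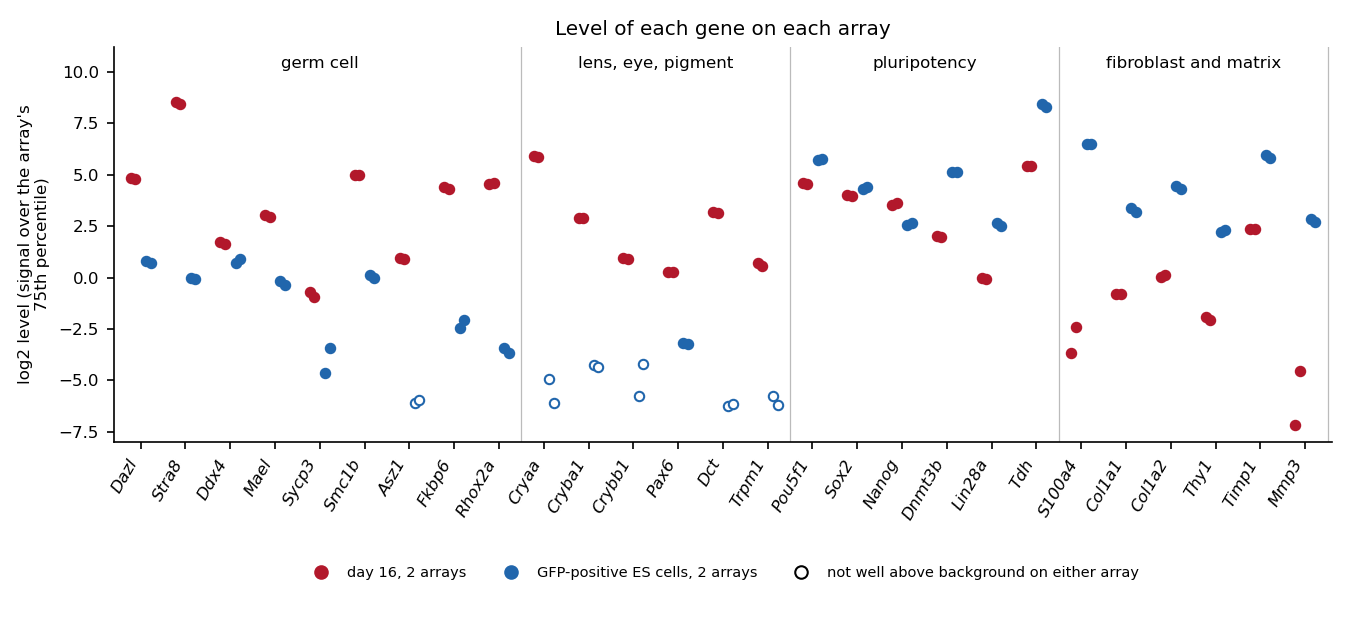
Log2 level (vertical axis) of 27 genes on each of the 2 day 16 arrays (red, left) and 2 ES arrays (blue, right), where open points mark genes not well above background on either array of that group. Stra8 sits near 8.5 at day 16 and near 0 in ES cells, Cryaa lies at 5.89 and 5.85 against -4.95 and -6.11, and the fibroblast genes lie lower at day 16.

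The promoters of germ cell genes are shown because an E-box (CACGTG) recurs in them. The search covered the 250 bases before the start. CACGTG was held by 13 of 30 members called higher of the gonadal, piRNA and meiosis lists with a RefSeq promoter. It was held by 15 of 49 tested members, against 6.05% of 27025 gene promoters. The motif reads the same on both strands, and these 30 and 49 were those of 34 and 63 members with an entry. The E2F6-type motif TCCCGC, on either strand, stood in 8 of 30 and 14 of 49, against 16.9% of all promoters. Below are the 250 bases before the start of Sycp3 (chr10:88459337-88459586, plus strand), Fkbp6 (chr5:135350045-135350294, minus strand) and Stra8 (chr6:34920698-34920947, plus strand), from RefSeq on GRCm38.p6. Capitals mark CACGTG in the first 2 and AGGTCA, the hexamer that retinoic acid receptors bind, in the Stra8 promoter.
Sycp3: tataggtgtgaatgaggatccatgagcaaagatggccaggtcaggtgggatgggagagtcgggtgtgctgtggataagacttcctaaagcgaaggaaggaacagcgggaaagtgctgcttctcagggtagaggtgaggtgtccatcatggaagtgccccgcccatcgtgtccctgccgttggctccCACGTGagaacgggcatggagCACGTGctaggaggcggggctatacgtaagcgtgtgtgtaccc
Fkbp6: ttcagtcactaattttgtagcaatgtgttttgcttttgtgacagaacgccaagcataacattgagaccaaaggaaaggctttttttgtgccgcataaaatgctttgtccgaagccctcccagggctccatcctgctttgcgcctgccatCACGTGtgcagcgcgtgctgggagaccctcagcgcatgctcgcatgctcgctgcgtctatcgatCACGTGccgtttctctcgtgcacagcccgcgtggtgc
Stra8: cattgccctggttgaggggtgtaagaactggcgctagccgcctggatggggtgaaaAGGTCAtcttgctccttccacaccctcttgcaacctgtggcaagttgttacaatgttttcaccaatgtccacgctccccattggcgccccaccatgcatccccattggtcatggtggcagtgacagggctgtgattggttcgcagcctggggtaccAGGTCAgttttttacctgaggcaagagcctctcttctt
The matches began 64 and 43 bases before the start of Sycp3 and 101 and 37 before that of Fkbp6. Those in Stra8 began 194 and 38 bases before the start. AGGTCA, searched on both strands, is common, with 13.8% of all promoters holding it and 2 of 14 in the retinoic acid list. The motifs were chosen with the values known, and a match is a description of these letters.

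Genes of the X chromosome were frequent among the rises. Of 550 X-linked genes tested, 21.1% were higher, against 11.1% of all genes, and 14.2% were lower, against 13.6%. Rhox2a, a homeobox gene of the reproductive cluster on the X, had 4.56 and 4.59 at day 16, against -3.42 and -3.66 in ES cells (log2 8.11 ± 0.51, 277-fold, adjusted p = 1.97e-06). Xlr5c, of a lymphoid and germ cell family on the X, was at 1.83 on both day 16 arrays and not well above background in ES cells (at least 56.8-fold, adjusted p = 1.06e-06). Magea1, a cancer-testis gene, had 0.93 and 0.95 at day 16, against -5.90 and -6.20 in ES cells (at least 30.6-fold, adjusted p = 3.7e-07). None of these groups overlapped. By family, taken after the values were seen, 6 of 6 Xlr genes, 5 of 8 Magea genes, 3 of 7 Rhox genes and 3 of 3 Ssx genes were higher and none was lower. Several members of these families are near-identical copies, so a probe may read more than 1 of them.

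The 15 largest rises, taken among genes with a current RefSeq name, also held genes with no list. That limit leaves out Xlr5d, which RefSeq does not carry under a single name and which was at least 169-fold higher (log2 9.52 ± 0.36, adjusted p = 5.77e-08). Ambp, which encodes the liver and plasma protein precursor of alpha-1-microglobulin, had 2.82 and 2.78 at day 16, against -5.83 and -6.18 in ES cells (at least 111-fold, adjusted p = 2.68e-05). Asb9, of a ubiquitin ligase adaptor family, had 2.59 and 2.51 at day 16, against -6.16 and -5.19 in ES cells (at least 93.5-fold, adjusted p = 0.000104). Neither was well above background in ES cells, and neither were the 6 genes that follow. The X-linked 1700013H16Rik (at least 236-fold), Gm5128 (at least 72.7-fold) and 1700080O16Rik (at least 54-fold) were among them, as were 1700018B24Rik (at least 152-fold), Ccdc172 (at least 48.6-fold) and Dct, a pigment gene described with its list. The log2 difference of 1700018B24Rik was 8.17, which was 7.44 without ES replicate 1 and 8.89 without ES replicate 2.

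Lens genes were higher in 15 of 26 members tested, of 33 listed, and lower in none, with a median of 2.53. With the day 16 arrays as 1 sample 11 were higher, and after normexp 7. For 4 of the 26, day 16 was the only group of the series above background on both arrays, so these could enter the test only by being high there. Without those 4, 11 of 22 were higher and 0 lower, with a median of 1.94. Without E13.5 replicate 1, 16 of the 26 were higher and 1 lower. The summed signal of the list was 84.4 to 84.7 at day 16, against 8.03 to 9.9 in ES cells. Cryaa alone made up 57.7 to 59.2 of the day 16 sum, and the other 25 members summed to 25.6 to 26.7 at day 16, against 8 to 9.89 in ES cells. Cryba1, a beta-crystallin gene, had 2.89 and 2.87 at day 16, against -4.25 and -4.35 in ES cells (at least 118-fold, adjusted p = 4.37e-06). Its groups did not overlap.

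Most further crystallins followed the same pattern. Of 13 crystallin genes tested, a family taken after the values were seen, 10 were higher and none lower. Among all genes 11.1% were higher and 13.6% lower. The 10 include Cryba2, Cryba4 and Crygn, which passed the filter through day 16 alone and so could enter the test only by being high there. Cryab (log2 -0.65), Crygd (1.19) and Crygf (0.51) were not called, at adjusted p of 0.146, 0.185 and 0.523. Crybb1 had 0.96 and 0.91 at day 16, against -5.77 and -4.18 in ES cells (at least 30.5-fold, adjusted p = 2.36e-05), and its log2 difference of 5.91 was 5.12 without ES replicate 1 and 6.71 without ES replicate 2. Crybb3 was 34.1-fold higher (log2 5.09 ± 0.54, adjusted p = 8.23e-05). Pitx3, a transcription factor of lens and midbrain, had -0.57 and -0.78 at day 16, against -3.35 and -3.31 in ES cells (log2 2.65 ± 0.27, adjusted p = 5.76e-05; 0.0835 after normexp). Gamma-crystallin genes are near-identical copies, so the 31.8-fold lower bound for Cryge (adjusted p = 0.000155) may include reads of its neighbours. The lens channel gene Mip had -1.21 and -1.12 at day 16, against -2.44 and -2.34 in ES cells, and was not called (log2 1.22 ± 0.46, adjusted p = 0.0747; 0.042 without E13.5 replicate 1). Lim2, a defining lens gene that passed the filter through day 16 alone, was called higher (log2 1.71, adjusted p = 0.0204). That call was lost after normexp (0.496), with low signals floored (0.283) and with slide as a block (0.054). The log2 difference of Lim2 was 1.91 without day 16 replicate 1 and 1.5 without day 16 replicate 2. It was 1.58 without ES replicate 1 and 1.83 without ES replicate 2. No probe of Crygs, another defining gene, passed the filter. The lens genes Maf (log2 -0.29), Hsf4 (-0.77), Birc7 (-0.36), Bfsp1 (-0.85) and Bfsp2 (0.28) were not called.

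The Cryaa, Cryba1 and Crybb1 promoters are shown for the letters TGCTGAC, the core of the element bound by Maf factors in lens. Of 23 tested lens genes with a promoter, 6 held it on either strand, 5 of the 15 called higher among them, against 3.72% of all gene promoters. The 250 bases before the start, from RefSeq on GRCm38.p6, are those of Cryaa (chr17:31677681-31677930, plus strand), Cryba1 (chr11:77725294-77725543, minus strand) and Crybb1 (chr5:112255570-112255819, plus strand), with TGCTGAC in capitals.
Cryaa: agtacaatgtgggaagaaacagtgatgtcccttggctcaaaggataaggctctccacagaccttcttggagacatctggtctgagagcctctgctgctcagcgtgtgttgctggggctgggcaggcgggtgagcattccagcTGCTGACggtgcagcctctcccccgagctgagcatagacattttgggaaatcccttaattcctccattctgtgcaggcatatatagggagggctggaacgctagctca
Cryba1: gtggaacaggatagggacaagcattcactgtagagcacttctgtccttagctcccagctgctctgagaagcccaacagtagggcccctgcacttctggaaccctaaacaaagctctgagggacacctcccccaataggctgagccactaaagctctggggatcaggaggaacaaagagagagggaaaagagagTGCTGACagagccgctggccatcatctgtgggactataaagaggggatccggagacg
Crybb1: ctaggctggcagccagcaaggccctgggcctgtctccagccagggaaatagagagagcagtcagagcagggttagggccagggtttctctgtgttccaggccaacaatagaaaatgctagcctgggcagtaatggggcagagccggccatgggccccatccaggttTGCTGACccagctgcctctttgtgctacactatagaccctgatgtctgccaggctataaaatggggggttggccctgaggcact
The match began 108 bases before the start in Cryaa, 57 in Cryba1 and 84 in Crybb1.

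Eye and pigment genes were higher in smaller numbers: 4 of 11 eye field and retina genes tested, with 1 lower, and 5 of 12 pigment genes, with none lower. With the day 16 arrays as 1 sample these were 4 and 5 higher, and after normexp 1 and 2. In each list 1 member had day 16 as the only group above background on both arrays; without it, 4 of 10 and 4 of 11 were higher. Pax6, the master regulator of eye development, had 0.25 and 0.27 at day 16, against -3.18 and -3.22 in ES cells (log2 3.46 ± 0.20, 11-fold, adjusted p = 1.09e-06). The eye field gene Lhx2 was 13.7-fold higher (adjusted p = 0.00222), and the retinal gene Atoh7 at least 4.62-fold (adjusted p = 0.000122). Neither was called after normexp, at adjusted p of 0.263 and 0.391. Rax, another eye field gene, was not well above background in ES cells and was not called (adjusted p = 0.166; 0.00137 without E13.5 replicate 1). No probe of Six3 passed the filter.

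Dct, an enzyme of melanin synthesis, had 3.16 and 3.13 at day 16, against -6.24 and -6.14 in ES cells, where it was not well above background (at least 141-fold, adjusted p = 2.14e-07). Trpm1, an ion channel of melanocytes and retina, was at least 24.4-fold higher (adjusted p = 1.45e-06). Each day 16 array was far above the ES arrays for both. Tyrp1, another melanin enzyme (at least 2.9-fold, adjusted p = 3.66e-06), and Mitf, the transcription factor of pigment cells (2.72-fold, adjusted p = 0.00646), were higher but not called after normexp (0.466 and 0.343). Tyrp1 was the pigment gene that passed the filter through day 16 alone, so it could enter the test only by being high there. The melanosome gene Pmel was not called (log2 0.57 ± 0.20, adjusted p = 0.0586; 0.0349 without E13.5 replicate 1). No probe of Tyr, which encodes tyrosinase, passed the filter.

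Endoderm genes were partly higher, beside 11.1% higher and 13.6% lower among all genes. Of 20 visceral endoderm and liver genes tested, 8 were higher and 1 lower, which came to 3 and 0 with the day 16 arrays as 1 sample and 0 and 0 after normexp. Of 15 parietal endoderm genes, 4 were higher and 1 lower, against 2 and 0 with the day 16 arrays as 1 sample, 1 and 0 after normexp, and 7 and 2 without E13.5 replicate 1. The summed signal of the visceral list was 65.1 to 66.1 at day 16, against 88.3 to 107 in ES cells. No probe of Ttr or Apoa1, both defining genes, passed the filter. Afp, another defining visceral gene, was called higher (log2 3.78) but was not well above background in ES cells. Like the rest of the visceral list, it was not called after normexp. Among the defining parietal genes, Col4a1 was higher (log2 1.27, adjusted p = 0.0161). Sparc (log2 -0.04), Lama1 (log2 1.36) and Lamb1 were not called.

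Srgn, a secretory proteoglycan of parietal endoderm and blood cells, had 2.33 and 2.23 at day 16, against -4.22 and -3.54 in ES cells (log2 6.16 ± 0.42, 71.7-fold, adjusted p = 3.42e-06). Cubn, an endocytic receptor of visceral endoderm, had 1.64 and 1.63 at day 16, against -3.42 and -4.08 in ES cells (log2 5.39 ± 1.26, adjusted p = 0.00963). That call was lost with the day 16 arrays as 1 sample (0.0566), after normexp (0.0618), without either day 16 array (0.0567 and 0.0539) and without ES replicate 2 (0.0631). Aqp8, a water channel, was 13.2-fold higher (adjusted p = 0.00291), Pdgfra, a receptor of primitive endoderm and mesoderm, at least 9.14-fold (adjusted p = 0.000284) and Dab2, an endocytic adaptor, 2.64-fold (adjusted p = 0.00117). None of the last 3 was called after normexp, at adjusted p of 0.0631 to 0.217. Hnf4a, a transcription factor of visceral endoderm, was not called (log2 0.21 ± 0.72, adjusted p = 0.856). It lay at -4.09 and -3.18 at day 16 and at -4.89 and -2.79 in ES cells, and without ES replicate 1 its log2 difference was -0.84.

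Retinoic acid genes were higher in 9 of 18 members tested and lower in 2 (7 and 0 with the day 16 arrays as 1 sample, 2 and 0 after normexp). Without 1 member that passed the filter through day 16 alone, 8 of 17 were higher and the median was 0.12, against 0.99 with it. Stra8 is 1 of the 9. Meis2, a homeobox gene induced by retinoic acid, had 1.31 and 1.27 at day 16, against -2.50 and -2.03 in ES cells (log2 3.55 ± 0.41, 11.7-fold, adjusted p = 0.000148). Dhrs3, which limits retinoic acid by reducing retinaldehyde, had 0.36 and 0.26 at day 16, against -2.51 and -2.39 in ES cells (log2 2.76 ± 0.29, adjusted p = 6.85e-05; 0.0753 after normexp). The day 16 arrays were the higher pair in each. Cyp26b1, which degrades retinoic acid in the fetal testis, was at least 1.9-fold higher (adjusted p = 0.00335; 0.496 after normexp).

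Genes of the 2-cell-like state, a rare state of ES cells that resembles the 2-cell embryo, were higher in 7 of 9 members tested, of 17 listed, and lower in none. There were 5 higher with the day 16 arrays as 1 sample and 0 after normexp, and 7 higher and 1 lower without E13.5 replicate 1. Normexp called only 167 of all 18868 genes higher, so 0 of 9 is near the share of all genes in that setting. The summed signal of the list went the other way, 14.4 to 14.8 at day 16, against 18.6 to 19.7 in ES cells. Usp17la had -0.44 and -0.52 at day 16, against -3.57 and -3.54 in ES cells (log2 3.07 ± 0.35, adjusted p = 0.000139; 0.198 after normexp). Tcstv1 (7.31-fold, adjusted p = 0.00086) and Tcstv3 (3.08-fold, adjusted p = 0.00215) were also higher. Neither was called after normexp (0.41 and 0.395). The log2 difference of Tcstv1 was 2.87, which was 2.15 without ES replicate 1 and 3.59 without ES replicate 2. Zscan4c was 4.01-fold higher (adjusted p = 0.00955; 0.318 after normexp, 0.057 with the day 16 arrays as 1 sample, and between 0.0509 and 0.0813 without day 16 replicate 1, day 16 replicate 2 or ES replicate 1). Pramel7, a gene of early embryos and ES cells, was at least 8.11-fold higher (adjusted p = 5.27e-05; 0.326 after normexp). All of these genes lay below the 75th percentile of the day 16 arrays.

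**Figure D3:**
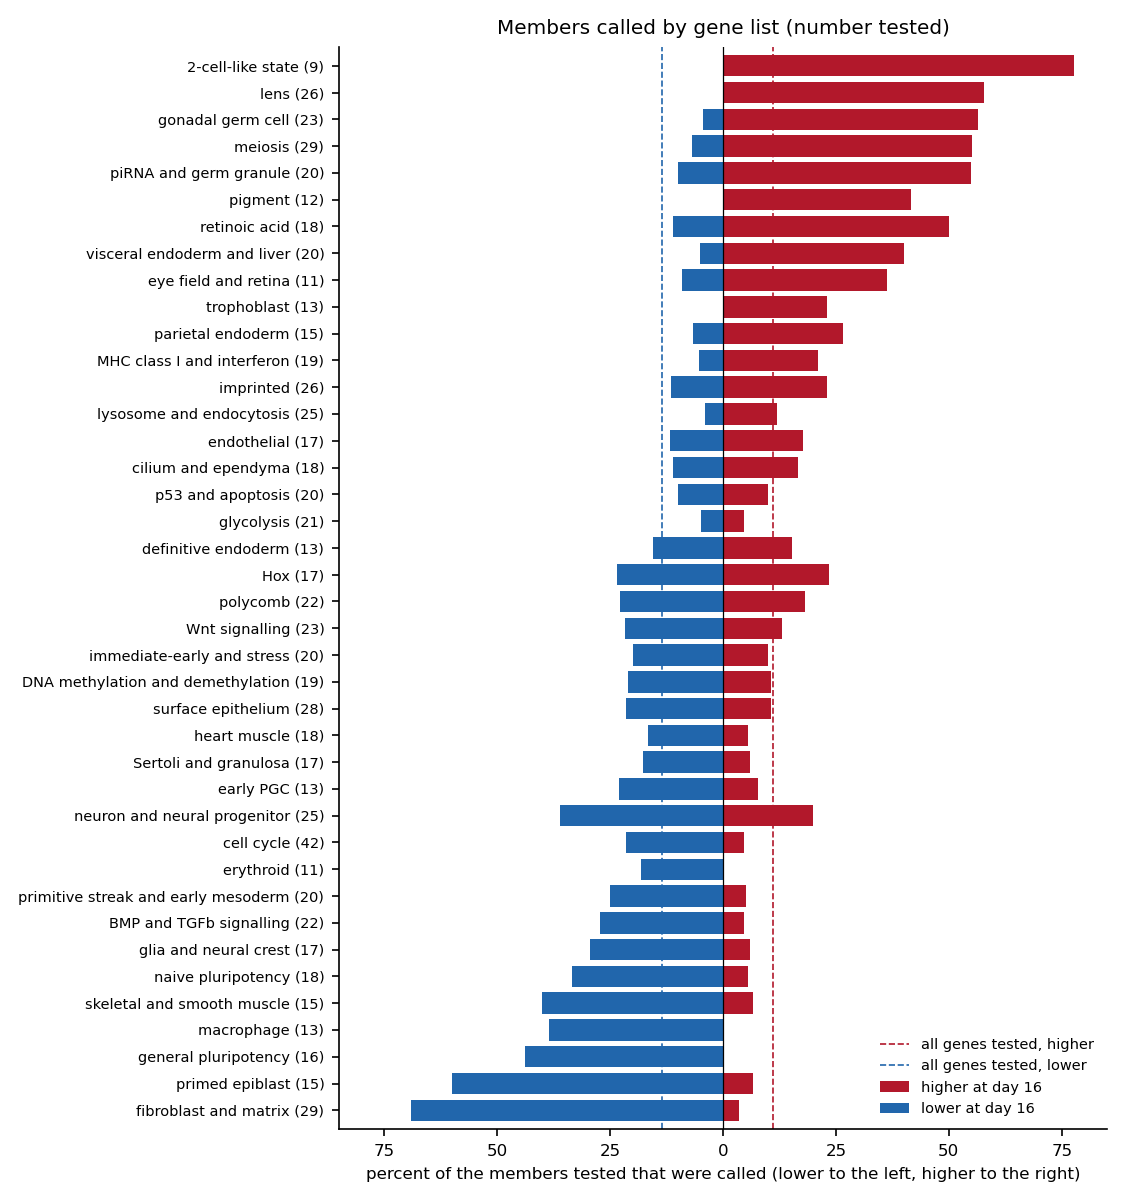
Percent of tested members of each of 40 gene lists called higher (red, right) or lower (blue, left) at day 16 than in GFP-positive ES cells, with the number tested in parentheses and dashed lines at 11.1% and 13.6%, the shares of all genes. The 2-cell-like, lens, gonadal, meiosis and piRNA lists lie at the top, and the fibroblast and primed epiblast lists at the bottom.

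Fibroblast and matrix genes were lower in 20 of 29 members tested, of 32 listed, and higher in 1, with a median of -2.62 (17 and 1 with the day 16 arrays as 1 sample, 11 and 1 after normexp). Their summed signal was 52.5 to 53.8 at day 16, against 321 to 332 in GFP-positive ES cells and 99.3 to 101 in GFP-negative ES cells. In sorted bulk samples fewer cells of a type and less RNA per cell cannot be told apart. The ES cells were grown with feeder MEFs and the day 16 cultures were depleted of them. The part of feeder cells in this result was not tested.

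Collagen genes of fibroblasts were abundant in ES cells. Col1a1, a chain of type I collagen, had -0.78 and -0.80 at day 16, against 3.38 and 3.20 in ES cells (log2 -4.08 ± 0.50, adjusted p = 0.000214). Col1a2, the other chain, had 0.01 and 0.12 at day 16, against 4.47 and 4.28 in ES cells (log2 -4.31 ± 0.50, adjusted p = 0.000148). Col3a1 fell by 2.62 on the log2 scale (adjusted p = 0.00599). In each of these the ES arrays lay above the day 16 arrays. The surface antigen Thy1 (log2 -4.23, adjusted p = 0.000169), the metalloproteinase inhibitor Timp1 (log2 -3.52, adjusted p = 0.000115), the collagen cross-linker Lox (at least 41.7-fold lower, adjusted p = 0.000126) and the mesenchymal factor Twist2 (at least 9.23-fold lower, adjusted p = 4.42e-05) were also lower, though Lox and Twist2 were not called after normexp (0.136 and 0.945). Tgfbi, a secreted matrix protein, was the member that rose, with 3.61 and 3.55 at day 16, against 0.72 and 0.69 in ES cells (7.36-fold, adjusted p = 0.000334). Of 39 collagen genes tested, 11 were higher and 14 lower; this family was chosen after the values were seen.

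The 15 largest falls began with S100a4, a calcium-binding protein of fibroblasts, with -3.65 and -2.38 at day 16, against 6.49 and 6.48 in ES cells (log2 -9.51 ± 0.64, adjusted p = 3.42e-06). The stromelysin gene Mmp3 had -7.15 and -4.55 at day 16, against 2.83 and 2.71 in ES cells (log2 -8.62 ± 0.84, adjusted p = 4.61e-05). Day 16 levels of both were spread while ES levels were not: S100a4 was -8.87 without day 16 replicate 1 and -10.14 without day 16 replicate 2, and Mmp3 -7.32 and -9.92. The activin subunit gene Inhba was at least 274-fold lower (adjusted p = 3.16e-05), the chemokine gene Ccl7 at least 117-fold (adjusted p = 1.15e-05) and the lysozyme gene Lyz2 at least 84.5-fold (adjusted p = 2.91e-05). Ccl7 had a log2 difference of -8.02, which was -7.32 without day 16 replicate 1 and -8.72 without day 16 replicate 2.

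The caveolin gene Cav1 (log2 -7.82, adjusted p = 7.94e-06), the matrix protein gene Mgp (log2 -7.51, adjusted p = 0.000109), the chemokine gene Ccl2 (log2 -7.28, adjusted p = 3.81e-06), the matrix glycoprotein gene Thbs1 (log2 -6.02, adjusted p = 2.08e-05) and the complement protease gene Masp1 (log2 -5.99, adjusted p = 0.000146) came next. Also lower were Tm4sf1 (log2 -6.63; -6.01 without day 16 replicate 1 and -7.25 without day 16 replicate 2), the protease inhibitor gene Serpina3g (log2 -6.56; -7.21 and -5.90) and the interleukin receptor gene Il1rl1 (log2 -6.03; -5.12 and -6.94). The lysozyme gene Lyz1 (at least 18.9-fold) and the chemokine receptor gene Cxcr6 (at least 12.9-fold) completed the 15. Lyz1, Serpina3g, Il1rl1 and Cxcr6 were not called after normexp, at adjusted p of 0.0908 to 0.668. Lyz1 and Lyz2 are near-identical copies.

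Of 13 macrophage genes tested, 5 were lower and none higher (4 and 0 with the day 16 arrays as 1 sample, 1 and 0 after normexp), and 3 of the 5 were not well above background in either group. The summed macrophage signal was 1.28 to 1.4 at day 16, against 4.72 to 4.9 in ES cells. No probe of Ptprc, the pan-leukocyte gene, passed the filter, and Adgre1 was not well above background in either group.

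The core pluripotency genes Pou5f1, Sox2 and Nanog, which hold ES cells in the undifferentiated state, were not called. Pou5f1 had 4.57 and 4.55 at day 16, against 5.69 and 5.77 in ES cells (log2 -1.17 ± 0.62, adjusted p = 0.197). Sox2 had 4.00 and 3.96 at day 16, against 4.32 and 4.41 in ES cells (log2 -0.39 ± 0.26, adjusted p = 0.298). Nanog had 3.53 and 3.64 at day 16, against 2.54 and 2.67 in ES cells (log2 0.98 ± 0.49, adjusted p = 0.172; 0.0023 without E13.5 replicate 1). For Pou5f1 and Sox2 the ES arrays, and for Nanog the day 16 arrays, formed the higher pair. Klf4 (log2 0.26), Zfp42 (-0.75) and Esrrb (-0.68), of the naive state, were not called (adjusted p = 0.473, 0.207 and 0.133), though Zfp42 and Esrrb were without E13.5 replicate 1 (0.0028 and 0.00369).

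Across the lists, 7 of 16 general pluripotency genes tested were lower and none higher (5 and 0 with the day 16 arrays as 1 sample, 12 and 1 without E13.5 replicate 1), and 6 of 18 naive genes were lower and 1 higher (1 and 1). Lin28a, which blocks let-7 maturation, had 0.00 and -0.07 at day 16, against 2.64 and 2.50 in ES cells (log2 -2.61 ± 0.37, adjusted p = 0.000541). Its relative Lin28b fell by 2.32 (adjusted p = 0.000107; 0.0673 after normexp), and Mycn by 1.86 (adjusted p = 0.00138). Tdh, the threonine dehydrogenase of mouse ES cells, had 5.40 and 5.43 at day 16, against 8.44 and 8.27 in ES cells (log2 -2.94 ± 0.33, adjusted p = 0.000124). Tbx3, a factor of naive ES cells, was the naive gene that rose, with 3.75 and 3.74 at day 16, against 2.02 and 2.03 in ES cells (3.3-fold, adjusted p = 3.56e-05).

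Of 15 genes of the primed epiblast, 9 were lower and 1 higher, with a median of -1.79 (6 and 0 with the day 16 arrays as 1 sample, 3 and 0 after normexp). Dnmt3b, a DNA methyltransferase of the epiblast, had 2.00 and 1.98 at day 16, against 5.13 and 5.12 in ES cells (log2 -3.13 ± 0.34, adjusted p = 9.63e-05). Pou3f1, an octamer factor, had 2.31 and 2.26 at day 16, against 5.16 and 5.21 in ES cells (log2 -2.90 ± 0.34, adjusted p = 0.000154). Fgf5, the classic epiblast marker, had -2.85 and -2.93 at day 16, against 1.23 and 1.12 in ES cells (log2 -4.07 ± 0.69, adjusted p = 0.0016; 0.0878 after normexp). The ES arrays were the higher pair for all 3. Otx2 was not called (log2 0.13 ± 1.61, adjusted p = 0.959).

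Primitive streak genes were lower in 5 of 20 and higher in 1 (2 and 1 with the day 16 arrays as 1 sample, 1 and 0 after normexp, 11 and 2 without E13.5 replicate 1). Fgf8, a growth factor of the streak, had -1.0 and -0.82 at day 16, against 1.58 and 1.44 in ES cells (log2 -2.42 ± 0.35, adjusted p = 0.000597). T, or brachyury, was at least 11.9-fold lower (adjusted p = 0.00268; 0.847 after normexp). Within signalling lists, 6 of 22 BMP and TGFb genes were lower and 1 higher (4 and 0 after normexp, 12 and 1 without E13.5 replicate 1). Bmp4, a signal for germ cell specification, had -2.23 and -2.06 at day 16, against 1.71 and 1.55 in ES cells (log2 -3.78 ± 0.76, adjusted p = 0.00438). Beside the streak, BMP and TGFb counts, 11.1% of all genes were higher and 13.6% lower.

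Of 26 imprinted genes, 6 were higher and 3 lower, beside 11.1% and 13.6% of all genes (2 and 2 with the day 16 arrays as 1 sample, 2 and 1 after normexp, 9 and 5 without E13.5 replicate 1). H19, a noncoding RNA of the paternally imprinted Igf2 domain, had 2.39 and 2.43 at day 16, against -0.11 and -0.25 in ES cells (log2 2.59 ± 0.38, adjusted p = 0.000657). Meg3, a noncoding RNA of the Dlk1 domain, had 2.76 and 2.80 at day 16, against 4.56 and 4.46 in ES cells (log2 -1.73 ± 0.36, adjusted p = 0.00515). Peg3 was not called (log2 0.18 ± 0.29, adjusted p = 0.695). Of 19 DNA methylation genes 2 were higher and 4 lower (1 and 1 with the day 16 arrays as 1 sample, 3 and 8 without E13.5 replicate 1). Dnmt3l (log2 -1.11, adjusted p = 0.0629) and Tet1 (log2 -1.01, adjusted p = 0.0761) were not called, but were without E13.5 replicate 1 (0.000323 and 0.00137).

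Of 22 polycomb genes, 4 were higher and 5 lower (1 and 4 with the day 16 arrays as 1 sample, 0 and 5 after normexp, 4 and 8 without E13.5 replicate 1). Bmi1, of the repressive complex that modifies H2A, had -0.70 and -0.54 at day 16, against -3.59 and -3.38 in ES cells (log2 2.86 ± 0.32, adjusted p = 0.000115; 0.199 after normexp). Eed, a core subunit of the complex that methylates H3, had 3.30 and 3.31 at day 16, against 4.42 and 4.41 in ES cells (log2 -1.10 ± 0.19, adjusted p = 0.00179). Epop, which binds that complex in ES cells, fell by 1.74 (adjusted p = 0.0016). Of 42 cell cycle genes, 9 were lower and 2 higher (5 and 0 with the day 16 arrays as 1 sample). Beside these polycomb and cell cycle counts, 11.1% of all genes were higher and 13.6% lower. Ccne1, which encodes cyclin E1, had 4.31 and 4.36 at day 16, against 6.79 and 6.80 in ES cells (log2 -2.46 ± 0.26, adjusted p = 8.31e-05). Cdkn2b, a cyclin-dependent kinase inhibitor, was also lower (log2 -2.74 ± 0.30, adjusted p = 0.000105).

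In the MHC class I and interferon list, 4 of 19 were higher and 1 lower (2 and 0 with the day 16 arrays as 1 sample). Among all genes 11.1% were higher and 13.6% lower. Without 1 member that passed the filter through day 16 alone, 4 of 18 were higher and 1 lower. Irf7, a transcription factor of the interferon response, was at least 5.37-fold higher (adjusted p = 0.000228; 0.289 after normexp). Ifi27, an interferon-induced gene, had 5.32 and 5.29 at day 16, against 1.89 and 1.81 in ES cells (log2 3.45 ± 0.73, adjusted p = 0.00557).

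The remaining lists are given as counts of higher and lower members, beside 11.1% higher and 13.6% lower among all genes. Neuron and neural progenitor genes had 5 higher and 9 lower of 25, glia and neural crest 1 and 5 of 17, heart muscle 1 and 3 of 18, and skeletal and smooth muscle 1 and 6 of 15. Definitive endoderm had 2 and 2 of 13, surface epithelium 3 and 6 of 28, trophoblast 3 and 0 of 13, endothelium 3 and 2 of 17, and erythroid cells 0 and 2 of 11. Sertoli and granulosa cell genes, the somatic cells around germ cells, had 1 and 3 of 17. The Hox list had 4 and 4 of 17, Wnt signalling 3 and 5 of 23, p53 and apoptosis 2 and 2 of 20, and immediate-early and stress genes 2 and 4 of 20. Glycolysis had 1 and 1 of 21, cilium and ependyma 3 and 2 of 18, and lysosome and endocytosis 3 and 1 of 25. Some members passed the filter through day 16 alone. Without them neuron genes had 4 and 9 of 23, surface epithelium 3 and 6 of 27, and trophoblast 2 and 0 of 11. Of the defining trophoblast genes, Cdx2 was not well above background at day 16 and no probe of Elf5 passed the filter. Without E13.5 replicate 1 the counts moved by over 1.5 times in 1 direction or both for glia (3 and 5), skeletal and smooth muscle (2 and 6), surface epithelium (6 and 8), trophoblast (5 and 1), Sertoli and granulosa cells (5 and 3), Wnt (5 and 6), p53 (3 and 6), stress (3 and 8), glycolysis (1 and 2), cilium (3 and 4) and lysosome genes (5 and 1).

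Between day 12 and day 16 10 of 26 lens genes were higher and 6 of 9 2-cell-like genes lower in sorted cells of the line, and no germ cell list gene was called. Of these 26 lens genes, 4 had passed the filter through day 16 alone. At day 16, 116 genes were higher and 75 lower than at day 12, or 1.01% of genes tested (0.615% higher and 0.397% lower), and 59 with the day 16 arrays as 1 sample. After normexp, 5385 were higher and 1645 lower. With the 5 closest replicate pairs as 1 sample each, limma called 0 genes; in the fit with all arrays 1462 genes had an unadjusted p under 0.05. The comparisons of day 12 and of day 16 with ES cells share the ES arrays.

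No gene of the gonadal (23 tested), piRNA (20) or meiosis (29) lists was called between the 2 days. Among all genes 1.01% were called, so these counts do not set the 3 lists apart from all genes. After normexp, where 7030 of all genes were called, 2 gonadal, 6 piRNA and 5 meiosis genes were. Dazl had 4.85 and 4.78 at day 16, against 4.93 and 4.81 at day 12, and Stra8 had 8.53 and 8.44 at day 16, against 8.95 and 8.84 at day 12. Kit (log2 -0.61, adjusted p = 0.423), Ddx4 (-0.71, 0.318), Pou5f1 (0.05, 1), Sox2 (0.17, 1), Nanog (-0.07, 1) and Dppa3 (-0.61, 0.845) were not called. Magea1 was higher at day 16, with 0.93 and 0.95, against -1.89 and -2.08 at day 12 (log2 2.92 ± 0.34, adjusted p = 0.00145).

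Lens genes were higher at day 16 than at day 12 in 10 of 26, and lower in none (6 with the day 16 arrays as 1 sample, 22 after normexp). The 26 include the 4 that could enter the test only by being high at day 16, and no count was made without them. Cryaa had 5.89 and 5.85 at day 16, against -1.01 and -0.82 at day 12 (log2 6.78, adjusted p = 2.78e-05). Cryba1 had 2.89 and 2.87 at day 16, against -4.25 and -4.30 at day 12 (log2 7.16, adjusted p = 6.9e-05). The 6 largest rises were these 2 with Cubn (at least 91.3-fold, adjusted p = 0.00823), Crybb1 (at least 49.6-fold, adjusted p = 0.000239), Mip (at least 13.1-fold, adjusted p = 0.000454) and the cytochrome gene Cyp4f14 (at least 15.7-fold, adjusted p = 0.0015), none of which was well above background at day 12. Pax6 was higher by 1.32 (adjusted p = 0.00823). Other lists with 2 or more genes higher at day 16 were neuron (4 of 25), visceral endoderm (3 of 20, with 1 lower), eye field (2 of 11), pigment (2 of 12), glia (2 of 17), primed epiblast (2 of 15) and lysosome (2 of 25). Of the members tested, 2 neuron, 1 eye field and 1 pigment gene had passed the filter through day 16 alone.

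The 2-cell-like genes went the other way, with 6 of 9 lower at day 16 than at day 12 and 0 higher, also with the day 16 arrays as 1 sample, and 5 lower and 2 higher after normexp. Zscan4c had -3.01 and -2.45 in ES cells, 2.79 and 2.89 at day 12, and -0.79 and -0.66 at day 16. Tcstv1 (log2 -4.04, adjusted p = 0.000914), Tcstv3 (-3.97, 6.9e-05), and, on no list, Gm428 (-3.85, 0.000635) and Pramel37 (-3.83, 7.93e-05) were among the 6 largest falls. For each of these 5 genes both day 16 arrays lay below the day 12 arrays and above the ES arrays.

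**Figure D4:**
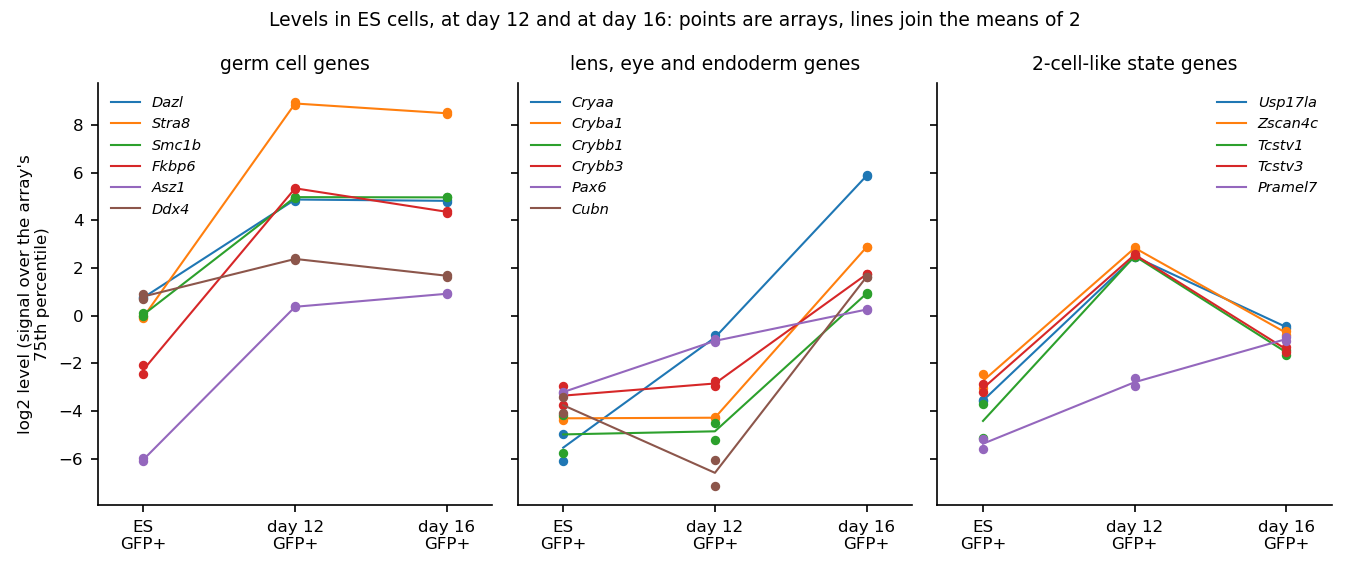
Log2 level (vertical axis) of germ cell, lens, eye and endoderm, and 2-cell-like genes in GFP-positive ES cells, at day 12 and at day 16 (horizontal axis), with points for arrays and lines through means of 2. The germ cell genes are high on both days, Cryaa lies at -1.01 and -0.82 at day 12 and 5.89 and 5.85 at day 16, and Tcstv1 and Tcstv3 are highest at day 12, whereas Pramel7 is highest at day 16.

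Against germ cells of the E13.5 gonad, day 16 cells had 3462 genes higher and 4551 lower, or 42.5% of genes tested (18.3% and 24.1%), and 5305 in all with the day 16 arrays as 1 sample. After normexp the counts were 8963 and 4835. The array labelled E13.5 replicate 1 stood apart, and without it 8132 genes were called. Of the germ cell lists, 12 of 23 gonadal, 12 of 20 piRNA and 12 of 29 meiosis genes were lower at day 16, and 0, 1 and 0 were higher. Without E13.5 replicate 1 these were 10, 11 and 6 lower and 3, 1 and 5 higher.

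Ddx4 had 1.71 and 1.64 at day 16, against 5.59 and 4.98 at E13.5 (log2 -3.61, adjusted p = 9.97e-07). Tdrd1 had -2.88 and -3.01 at day 16, against 3.22 and 2.56 at E13.5 (log2 -5.83, adjusted p = 1.35e-07). Dazl was closer, with 4.85 and 4.78 at day 16, against 5.42 and 5.27 at E13.5 (log2 -0.53, adjusted p = 0.0198). Dppa3 was lower at day 16 (log2 -2.63, adjusted p = 0.000162), while Kit (0.02, 0.945) and Pou5f1 (0.34, 0.694) were not called. Sox2 (log2 2.07, adjusted p = 9.47e-05) and Nanog (log2 3.32, adjusted p = 0.000306) were higher at day 16. Stra8 was not called, with 8.53 and 8.44 at day 16, against 8.87 and 1.55 at E13.5 (adjusted p = 0.151).

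Lens genes were higher at day 16 than at E13.5 in 18 of 26 and lower in none, and pigment genes higher in 7 of 12 and lower in 1. Of the members tested, 4 lens genes and 1 pigment gene had passed the filter through day 16 alone. The 6 largest rises were Cryaa (log2 10.17, adjusted p = 6.23e-08), Dct (log2 8.55, adjusted p = 1.7e-07), Tbx3 (log2 8.02, adjusted p = 2.09e-10), Eprn (at least 157-fold, adjusted p = 8.41e-10), Cryba1 (at least 301-fold, adjusted p = 5.46e-07) and the interferon-induced Usp18 (at least 76-fold, adjusted p = 0.000113). Cryaa had 5.89 and 5.85 at day 16, against -4.35 and -4.26 at E13.5. Fibroblast genes were higher at day 16 in 15 of 29 (summed signal 52.5 to 53.8, against 23.7 to 24.2 at E13.5), and glycolysis genes in 16 of 21, with 2 lower (1760 to 1780, against 337 to 535).

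Against GFP-negative ES cells of the line, day 16 cells had 2225 genes higher and 2425 lower, or 24.6% of genes tested (11.8% and 12.9%), and 2152 in all with the day 16 arrays as 1 sample. After normexp 923 were higher and 2319 lower. Gonadal genes were higher in 15 of 23, piRNA genes in 13 of 20, meiosis genes in 16 of 29 and lens genes in 17 of 26. The 26 lens genes include the 4 that passed the filter through day 16 alone. Dazl was 289-fold higher (log2 8.17, adjusted p = 1.54e-10), Ddx4 (log2 1.54) and Kit (2.05) were called higher, and so was Cryaa (10.66). Fibroblast genes were lower in 12 of 29, against 20 of 29 in the comparison with GFP-positive ES cells. S100a4 had -3.65 and -2.38 at day 16, against 4.18 and 4.2 in GFP-negative ES cells, and fell by 7.21 on the log2 scale. Primitive streak genes were lower in 14 of 20, and T was at least 151-fold lower. Nanog was higher (log2 1.47), while Pou5f1 (-0.95), Sox2 (0.40) and Dppa3 (0.58) were not called. Whether these differences from the GFP-positive ES comparison exceed the error was not tested.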

How the data were processed

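RNA of 18 mouse samples was labelled with 1 colour and hybridised to Agilent Mouse Whole Genome 4X44K arrays, 2 per group, per the labels. Per the file headers, spots were read with version 9.1.3.1 of Feature Extraction, and the deposited values are intensity: background-subtracted and spatially detrended, not scaled between arrays. The authors also deposited group means of intensity scaled to the median, used only as an alternative.

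Control spots and 172 probes flagged as outliers were left out, and 41002 probes kept. Signals of repeated spots were averaged, taken to log2, and the array's own log2 75th percentile was subtracted. A gene took its brightest probe. Probes well above background on both arrays of at least 1 group were kept, 28101 probes of 18868 genes. Gene names came from RefSeq accessions (22846 probes), symbols or synonyms (9721), or the file itself (8435); 8857 genes had several probes. All 18 arrays were fitted together by group in limma 3.58.1 (R 4.3.3) with lmFit and eBayes, two-sided, Benjamini-Hochberg adjusted, with 9 residual degrees of freedom, and the number of arrays limits the precision. A gene dim in the lower group is given as "at least N-fold", from the higher group's mean against the lowest signal well above background there.

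The members and the 40 gene lists were chosen with earlier results of these data known. Genes were named by a rule: a panel, the 15 largest rises and falls, defining list members and up to 6 called list members by p, and 6 rises and falls in each other comparison; X-linked families were chosen after seeing values. On simulated data, 58 of 100 genes shifted by 2 on the log2 scale were recovered, 4 of 100 shifted by 1, and 6 of 18668 unshifted genes were called. The simulated spread came only from the gaps between the 2 arrays of each group. It held no difference shared by both arrays of a group, so false calls from such differences were not tested. Alternatives covered the background correction, scaling, dim-probe filter, probe choice, slide and scan blocks, arrays fitted and each replicate left out.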

Additional observations from a re-analysis of the deposited data

Results flagged for a closer look

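The effect of differentiation, set against the same GFP-positive ES cells, differed between day 16 and day 12 in 191 genes of 18868, 116 higher and 75 lower at day 16, by limma's test of the difference at a Benjamini-Hochberg adjusted p under 0.05. Cubn, Cryba1 and Cryaa had the largest rises and Tcstv1 and Tcstv3 the largest falls. The 2 arms share the ES arrays, and the difference between them is that of day 16 and day 12.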

How the results depend on the processing

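Counts of called genes moved with the processing and with the arrays fitted. Day 16 against GFP-positive ES cells gave 4665; normexp gave 1088, no filter on dim probes 7178, slide as a block 2764, only the 4 arrays 9748, only the Dazl-GFP culture arrays 10700, day 16 arrays as 1 sample 2100 and the 5 closest pairs as 1 sample each 91. Without E13.5 replicate 1 it gave 6563, and leaving out a replicate of either group 2088 to 2524. Against day 12 the count was 191; normexp gave 7030, a signal above background on all 4 arrays 102, only the 4 arrays 3723, the culture arrays 3797, without E13.5 replicate 1 375, day 16 as 1 sample 59 and the 5 pairs 0; leaving out a replicate gave 60 to 84. Against E13.5 it was 8013; normexp gave 13798, only the 4 arrays 3237, day 16 as 1 sample 5305 and the 5 pairs 1420; leaving out a replicate gave 5340 to 8427. Against GFP-negative ES cells it was 4650 (6463 without E13.5 replicate 1); slide as a block gave 2699, only the 4 arrays 10506, the culture arrays 10572, day 16 as 1 sample 2152 and the 5 pairs 136; leaving out a replicate gave 2134 to 2488. The cause of these changes was not tested. Tdrd1 and Mei4 were reversed after normexp, at 0.09 and 0.33. Of 126 genes called in a set that holds those named, 75 kept their call and sign after normexp, 112 with the day 16 arrays as 1 sample and 29 with the 5 pairs; quantile normalization and median scaling each lost 3 and the floored signals 4. Replicate numbers share no stated pairing, and a replicate block gave 4681, 177, 8100 and 4758; correlations of replicate deviations between day 16 and the other groups were 0.30 (GFP-positive ES cells), 0.549 (day 12), 0.36 (GFP-negative ES cells) and 0.0215 (E13.5). By the authors' deposited table, the sign was the same for 3231 of 3259 matched called genes. A dim probe's level, and so its fold, is limited by signal over background. The day 16 pair as 1 sample and the 5 pairs were settings chosen after the data were seen.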
